A study of Mus musculus with 2 samples.

Results

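The 10 genes described here encode the pathway by which a cell shows peptides of its own proteins on MHC class I molecules. They were listed by name and not by a threshold on values, though with earlier results of these data known, and are 10 of the 32285 genes in the count matrix. They are the classical heavy chain genes H2-K1 and H2-D1, the light chain gene B2m, the peptide transporter genes Tap1 and Tap2, the tapasin gene Tapbp, the inducible proteasome subunit genes Psmb8, Psmb9 and Psmb10, and Nlrc5, which encodes a transcriptional activator. Their transcripts were counted cell by cell, each molecule once by its unique molecular identifier (UMI), in organoids of mouse esophageal and mouse stomach epithelium. Each tissue was 1 sample that combined cells of 3 wild type female C57BL/6 mice, and no mutant, infection or cytokine treatment entered either group. Both media held EGF, noggin, FGF-10, N-acetylcysteine, nicotinamide, a TGF-β receptor kinase inhibitor and a ROCK inhibitor. The esophageal medium added forskolin. The stomach organoids came from corpus glands and were grown with gastrin, WNT3A and R-spondin1 in place of forskolin, so the effects of tissue and of medium cannot be told apart. With 1 sample per group no test was possible, and the intervals below are exact 95% intervals that cover counting error only. For shares of cells they treat the cells of 1 sample as independent, and no interval covers variation between samples. Ranges given with correlations are not such intervals.

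In the class I pathway, proteasomes cut cytosolic proteins into peptides, the TAP transporter moves the peptides into the endoplasmic reticulum, and tapasin holds TAP next to an empty heavy chain until a fitting peptide is bound. The loaded heavy chain then travels to the cell surface together with β2-microglobulin, where CD8 T cells read the peptide and natural killer cells sense whether class I is there at all. Interferons raise most genes of the pathway, and the inducible subunits then take the places of the constitutive catalytic subunits Psmb5, Psmb6 and Psmb7 to form the immunoproteasome. Epithelia that meet food and microbes, such as those of the esophagus and stomach, present class I peptides and can raise this machinery in inflammation.

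Of the 10 genes, 7 lie on chromosome 17, where Psmb9, Tap1, Psmb8 and Tap2 follow each other between positions 34181987 and 34216321 of GRCm38. B2m is on chromosome 2, and Psmb10 and Nlrc5 are on chromosome 8. The promoters of H2-K1, H2-D1 and B2m are printed because these genes carry most of the pathway's transcripts here, and the stretch between Psmb9 and Tap1 because one run of bases precedes both genes. RefSeq promoter windows of GRCm38.p6 matched 8 of the 10 genes, all but Tap2 and Nlrc5. For the first 3 genes the 250 bases before the RefSeq start are given, at chr17:34000348-34000597 on the minus strand, chr17:35262844-35263093 on the plus strand and chr2:122147437-122147686 on the plus strand. The fourth stretch holds the 225 bases between the RefSeq starts of Psmb9 and Tap1, chr17:34187331-34187555, written on the strand of Tap1. Capitals mark each match, on either strand, to AANNGAAA (the core of the sites bound by interferon regulatory factors), to TGACG (part of the X2 box), to ATTGG (the Y box) and to the κB decamer.
H2-K1: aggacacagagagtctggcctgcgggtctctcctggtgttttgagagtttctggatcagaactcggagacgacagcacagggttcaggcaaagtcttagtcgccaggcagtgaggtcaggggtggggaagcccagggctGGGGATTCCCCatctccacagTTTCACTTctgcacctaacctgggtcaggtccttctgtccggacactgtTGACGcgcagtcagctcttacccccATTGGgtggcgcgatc
H2-D1: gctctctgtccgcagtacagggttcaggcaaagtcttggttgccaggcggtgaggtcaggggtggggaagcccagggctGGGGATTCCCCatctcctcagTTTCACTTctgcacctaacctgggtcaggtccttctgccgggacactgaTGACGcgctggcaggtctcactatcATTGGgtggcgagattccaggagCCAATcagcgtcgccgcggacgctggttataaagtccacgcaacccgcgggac
B2m: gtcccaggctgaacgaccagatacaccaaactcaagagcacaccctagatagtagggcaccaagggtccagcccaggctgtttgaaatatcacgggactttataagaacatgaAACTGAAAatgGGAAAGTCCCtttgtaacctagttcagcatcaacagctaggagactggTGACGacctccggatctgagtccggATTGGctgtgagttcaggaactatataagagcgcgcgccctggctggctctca
Tap1 and Psmb9: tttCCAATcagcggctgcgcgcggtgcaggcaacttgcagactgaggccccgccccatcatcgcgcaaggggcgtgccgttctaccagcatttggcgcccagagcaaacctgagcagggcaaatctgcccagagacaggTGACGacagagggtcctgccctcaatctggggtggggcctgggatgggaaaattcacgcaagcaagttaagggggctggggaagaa
No match overlapped a match to another of the 4 motifs. In H2-K1, H2-D1 and B2m a TGACG was followed by an ATTGG exactly 20 bases later, the arrangement known as the X2 and Y boxes of class I promoters, to which the enhanceosome that NLRC5 joins is bound. A TGACG with an ATTGG 15 to 35 bases after it, on either strand, was present in 167 of 27025 promoter windows of the same length, or 0.618%, and in 3 of the 8 matched members. The interferon regulatory factor core was present in the same 3 members and in 21.6% of all windows, and the κB decamer in the same 3 and in 3.75%. TGACG alone was present in 5 of the 8 and in 17.9% of all windows, and ATTGG alone in 6 of the 8 and in 34.5%. In H2-K1 and H2-D1 the κB, interferon regulatory factor, X2 and Y letters stood in the same order. These matches describe the letters alone.

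The esophageal tag held 919 cell barcodes and the stomach tag 180, in 1 pooled run in which every barcode was given 1 sample tag, a DNA label attached before pooling. Limits on genes, UMIs and mitochondrial share left 765 and 90. Keratin transcripts then gave 702 squamous cells of the esophageal tag (median 23460 UMIs, 18456220 in all) and 46 columnar cells of the stomach tag (median 59576 UMIs, 2469229 in all). Predicted doublets were kept in both groups. Without those that Scrublet called, 694 squamous and 31 columnar cells would remain. Some cells went against their tag, since 24 cells of the esophageal tag were columnar and 21 of the stomach tag squamous, the latter with a median of only 747 UMIs. Squamous markers were higher in the squamous cells, by at least 2 times for 12 of 14 measured basal and 14 of 19 measured differentiation markers, and 9 of 10 measured columnar markers were higher in the columnar cells by as much. The squamous keratins stood in columnar cells at 1.47% of their squamous level. The columnar keratins stood in squamous cells at 2.22% of their columnar level. These are the keratins by which the cells were called, and the call left out cells with larger shares of the other kind. Low values are thus partly built in and cannot gauge free RNA. No cell type here should lack class I transcripts, so no gauge of free RNA is at hand for the members. Immune cells, which are rich in class I transcripts, were hardly detectable: of 19 immune markers 13 were at 0 in each group, among them Cd3e, Csf1r and Tyrobp, and Ptprc (CD45) had 0 UMIs in squamous and 1 in columnar cells. The summed immune markers stood at 4.99 CPM (UMIs of the gene per 1000000 UMIs of the cells) in squamous and 27.9 in columnar cells, and Lcp1 gave 50 of the 69 columnar UMIs. Their part in the results was not tested.

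The first comparison asked how the class I genes differ between squamous esophageal and columnar stomach cells. Heavy chains, tapasin and the immunoproteasome subunit Psmb10 were each about 2 to 3 times higher in columnar cells, B2m differed less, and the transporter gene Tap1 went the other way. Of the 10 members 9 were measured, that is had at least 10 UMIs over both groups, and 4 of these were at least 2 times higher in columnar cells (H2-K1, Tapbp, Psmb9 and Psmb10), where 18.7% of all 12717 measured genes were. Tap1 alone was at least 2 times higher in squamous cells, where 14.8% of all genes were. The median log2 difference of squamous over columnar was -0.97 over the 9 members and -0.04 over all measured genes. The counting interval lay wholly on the columnar side for 6 members and wholly on the squamous side for Tap1. The groups differed in more than lineage. The median mitochondrial share was 7.47% in columnar and 3.70% in squamous cells, 5 of 15 genes of a dissociation stress list were at least 2 times higher in columnar cells (summed level 3761 against 2711 CPM), and 18 of 18 G2/M markers were at least 2 times higher in squamous cells. Their part in the differences of the members was not tested.

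**Figure D1:**
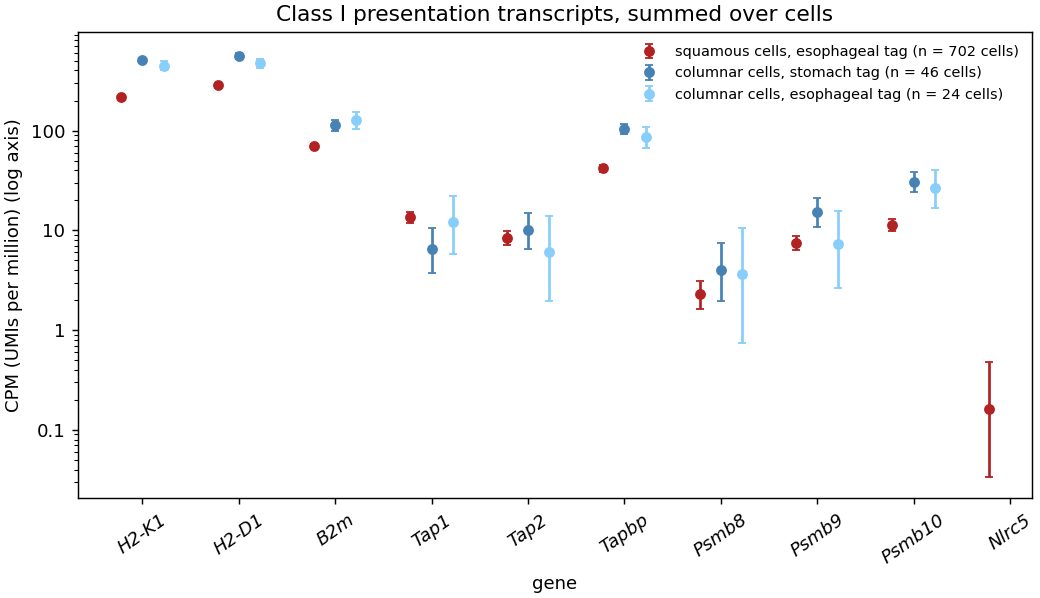
Level of each class I gene in CPM (log axis), summed over squamous cells of the esophageal tag, columnar cells of the stomach tag and columnar cells of the esophageal tag; bars are exact 95% Poisson intervals. H2-K1 stood at 216, 505 and 448 in the 3 populations, Nlrc5 had 3 UMIs in squamous cells, and a count of 0 is not drawn.

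H2-K1 and H2-D1 encode the chains that hold the peptide, and they made up 76.4% of the members' UMIs in squamous and 79.0% in columnar cells. H2-K1 had 3989 UMIs in squamous cells, a level of 216 CPM (210 to 223), and 1247 in columnar cells, 505 CPM (477 to 534), which is 2.34 times higher in columnar cells (2.19 to 2.49). Cell by cell, its level ran from 0 over a median of 168 to 2937 CPM in squamous cells, and from 235 over a median of 493 to 1653 CPM in columnar cells. The ranges overlapped, yet all 46 columnar cells held H2-K1, against 524 of 702 squamous cells (74.6%). Columnar cells were deeper, and after every cell was thinned to 5000 UMIs, 41 of 45 columnar cells (91.1%, 78.8 to 97.5) and 298 of 491 squamous cells (60.7%, 56.2 to 65.0) held at least 1 UMI, as the median over 25 random thinnings that all thinned shares below are; 1 columnar and 211 squamous cells were too shallow to thin.

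H2-D1 had 5283 UMIs in squamous cells (286 CPM, 279 to 294) and 1388 in columnar cells (562 CPM, 533 to 593). It was 1.96 times higher in columnar cells (1.85 to 2.08), just short of the 2 times used above. Its median per cell was 248 CPM in squamous cells (0 to 2240) and 535 CPM in columnar cells (0 to 1166), so the groups overlapped here too. After thinning, 40 of 45 columnar cells (88.9%) and 353 of 491 squamous cells (71.9%) held it, against 45 of 46 and 567 of 702 before. Both genes belong to a family of near-identical copies, and reads of the 3′ end can be lost or shared among H2-K1, H2-D1 and the H2-Q and H2-T genes, so their levels are uncertain to that extent. H2-D1 gave 57.0% of the UMIs of the pair in squamous cells (56.0 to 58.0) and 52.7% in columnar cells (50.8 to 54.6).

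B2m encodes β2-microglobulin, the light chain that all class I molecules need. It stood at 70.2 CPM in squamous cells (66.5 to 74.2) and 113 CPM in columnar cells (100.1 to 127), 1.61 times higher in columnar cells (1.41 to 1.83). Heavy chain UMIs thus outnumbered those of B2m 7.15 times in squamous (6.75 to 7.59) and 9.44 times in columnar cells (8.35 to 10.7). B2m UMIs were found in 45 of 46 columnar and 403 of 702 squamous cells, and after thinning in 18 of 45 (40.0%) and 133 of 491 (27.1%).

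Tapbp encodes tapasin, which edits the peptides bound by the heavy chain. Its level was 41.7 CPM in squamous cells (38.8 to 44.7) and 104 CPM in columnar cells (91.4 to 117), a difference of 2.49 times (2.15 to 2.87). After thinning, 19 of 45 columnar cells (42.2%) and 89 of 491 squamous cells (18.1%) held a Tapbp UMI.

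Tap1 and Tap2 encode the paired chains of the peptide transporter. Tap1 had 249 UMIs in 174 squamous cells (13.5 CPM, 11.9 to 15.3) and 16 UMIs in 13 columnar cells (6.48 CPM, 3.70 to 10.5), so it was 2.08 times higher in squamous cells (1.26 to 3.70). Tap2 had 154 UMIs in squamous cells (8.34 CPM) and 25 in columnar cells (10.1 CPM), and its ratio of columnar over squamous, 1.21, had an interval from 0.762 to 1.86 that takes in equality. The Tap1 difference rests on few columnar UMIs. In 54 columnar cells of the stomach tag that lay over the limits, the ratio of columnar over squamous was 0.730 (0.532 to 0.985), against 0.480 (0.270 to 0.796) within the limits.

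The inducible subunits were scarce in both groups. Psmb10 encodes the subunit that replaces Psmb7, and it had 210 UMIs in squamous cells (11.4 CPM, 9.89 to 13.0) and 76 in columnar cells (30.8 CPM, 24.3 to 38.5), 2.71 times more in columnar cells (2.05 to 3.53). Psmb9, the counterpart of Psmb6, stood at 7.48 CPM (6.28 to 8.83) and 15.4 CPM (10.9 to 21.1), 2.06 times more in columnar cells (1.40 to 2.97). Psmb8, the counterpart of Psmb5, had 42 UMIs in squamous and 10 in columnar cells, and its ratio of 1.78 was not distinguishable from equality at this depth (0.796 to 3.60). Nlrc5, the transactivator of class I genes, had 3 UMIs in 702 squamous cells and 0 in 46 columnar cells. Its interval in columnar cells reached up to 1.49 CPM, so no comparison could be made.

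**Figure D2:**
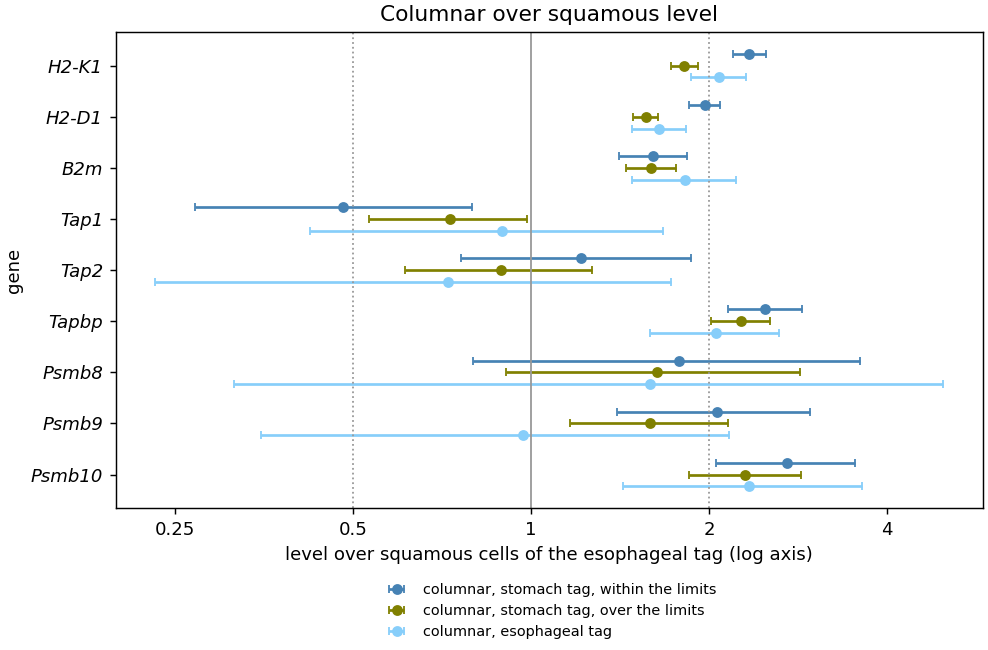
Ratio of the level in columnar cells to that in squamous cells of the esophageal tag (log axis), for columnar cells of the stomach tag within the limits, of the stomach tag over the limits and of the esophageal tag; bars are exact 95% intervals, the solid line is 1 and the dotted lines are 0.5 and 2. H2-K1, H2-D1, B2m, Tapbp and Psmb10 lie above 1 with their whole interval in all 3 populations, and Tap1 lies below 1 in all 3, its interval crossing 1 only for the columnar cells of the esophageal tag.

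Columnar cells that carried the esophageal tag were set against the squamous cells of that tag. The study's methods describe cells with wrong sample tags, so whether these came from the esophageal sample or from the stomach sample cannot be told apart, and this is not a comparison within 1 sample. In these 24 cells H2-K1 stood at 448 CPM, 2.08 times the squamous level (1.86 to 2.31), H2-D1 at 471 CPM (1.65 times, 1.48 to 1.83), B2m at 128 CPM (1.82 times, 1.48 to 2.22), Tapbp at 85.6 CPM (2.05 times, 1.59 to 2.62) and Psmb10 at 26.5 CPM (2.33 times, 1.43 to 3.62). Psmb9, with 6 UMIs (7.23 CPM), had a ratio of 0.967 (0.349 to 2.16) and Tap1, with 10 UMIs (12.1 CPM), one of 0.894 (0.423 to 1.67), neither distinguishable from equality at this depth. The 54 columnar stomach cells over the limits were deep (median 106152 UMIs) and less separated from squamous cells in the heavy chains, with H2-K1 at 392 CPM (1.82 times, 1.72 to 1.91) and H2-D1 at 447 CPM (1.56 times, 1.49 to 1.64). Tapbp (2.26 times, 2.02 to 2.53) and Psmb10 (2.30 times, 1.85 to 2.86) were closer to the values above.

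Set against its constitutive counterpart, each inducible subunit measures how far the catalytic genes lean to the immunoproteasome. Psmb10 gave 7.23% of the UMIs of Psmb10 and Psmb7 in squamous cells (6.32 to 8.23) and 24.6% in columnar cells (19.9 to 29.8), and 24.2% (15.8 to 34.3) in the columnar cells of the esophageal tag. In the latter the share of Psmb9 was 2.67% (0.985 to 5.71), near the squamous one given next, and that of Psmb8 1.06% (0.219 to 3.07). Psmb9 gave 2.54% of the UMIs of Psmb9 and Psmb6 in squamous cells (2.14 to 3.00) and 6.29% in columnar cells (4.49 to 8.53), and Psmb8 gave 0.712% (0.514 to 0.962) and 1.29% (0.619 to 2.35) of its pair. In both lineages the constitutive genes thus outweighed the inducible ones. All 3 shares were higher in columnar cells of the stomach tag, the Psmb10 and Psmb9 intervals did not overlap with the squamous ones, and the Psmb8 intervals did. The constitutive genes themselves, Psmb5 (317 CPM squamous, 311 columnar), Psmb6 (287 and 229) and Psmb7 (146 and 94.4), and all 12 genes of a list that holds the other core subunits and the assembly factor gene Pomp were within 2 times between the groups. Of all measured genes 18.7% were at least 2 times higher in columnar cells and 14.8% in squamous cells. The inducible genes did not share the slight squamous lead of the list of other core subunits, whose median log2 difference was 0.30.

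**Figure D3:**
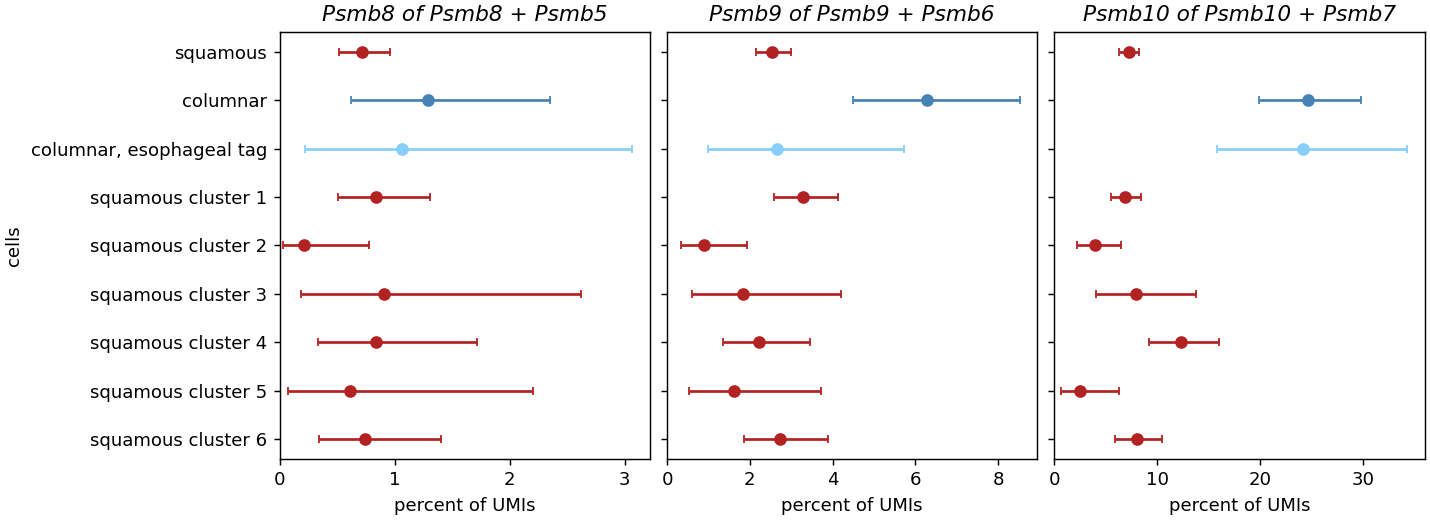
Share of each inducible subunit in the UMIs of the inducible and constitutive gene pair, in percent, for squamous cells of the esophageal tag, columnar cells of either tag and the 6 squamous clusters; bars are exact 95% Clopper-Pearson intervals. For Psmb10 the columnar populations sit at 24.6% and 24.2%, above all squamous clusters (2.50% to 12.3%).

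The second comparison took the members across the states of the squamous cells, as clusters of the 702 cells. The clusters were built from these same cells, so their differences are a description. Cluster 1 (160 cells) was cycling, with the highest sums of both the G2/M (4021 CPM) and the S phase markers (1166 CPM), and Top2a, Mki67 and the histone gene Hist1h1b among its leading genes. Cluster 2 (71 cells) was led by Rhov, Zfp750 and Ly6d and was rich in differentiation transcripts (11586 CPM of the marker list). Cluster 3 (147 cells, median 1557 UMIs) was led by stomach genes such as Agr2, Tff1 and Gkn3 and was left unnamed. Cluster 4 (58 cells), led by Csf3, Inhba and Itga2, had the highest basal marker sum (8206 CPM). Cluster 5 (130 cells, median 2592 UMIs), led by Psca and Sprr2f, had by far the most differentiation transcripts (39351 CPM) and was also shallow. Cluster 6 (136 cells) was led by weaker genes such as Ccl20, Dll1 and Ccnd2 and had a basal sum of 6433 CPM with few cycle transcripts.

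In the cluster richest in differentiation transcripts the heavy chains were above the other squamous cells, and the summed transporter and inducible proteasome genes were below them. In cluster 5 H2-D1 stood at 606 CPM, 2.31 times the level of the other squamous cells (2.13 to 2.49), and H2-K1 at 357 CPM (1.73 times, 1.57 to 1.91), while the transporter and inducible proteasome genes together stood at 21.5 CPM against 44.5 CPM elsewhere. Cluster 4, the richest in basal transcripts, was above the other cells in both, though in the second sum only Psmb10 had an interval above 1. Of the 9 measured members, 7 had a highest cluster at least 2 times their lowest, where 76.3% of all 12251 genes measured in squamous cells did, so ranges of this size were common.

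**Figure D4:**
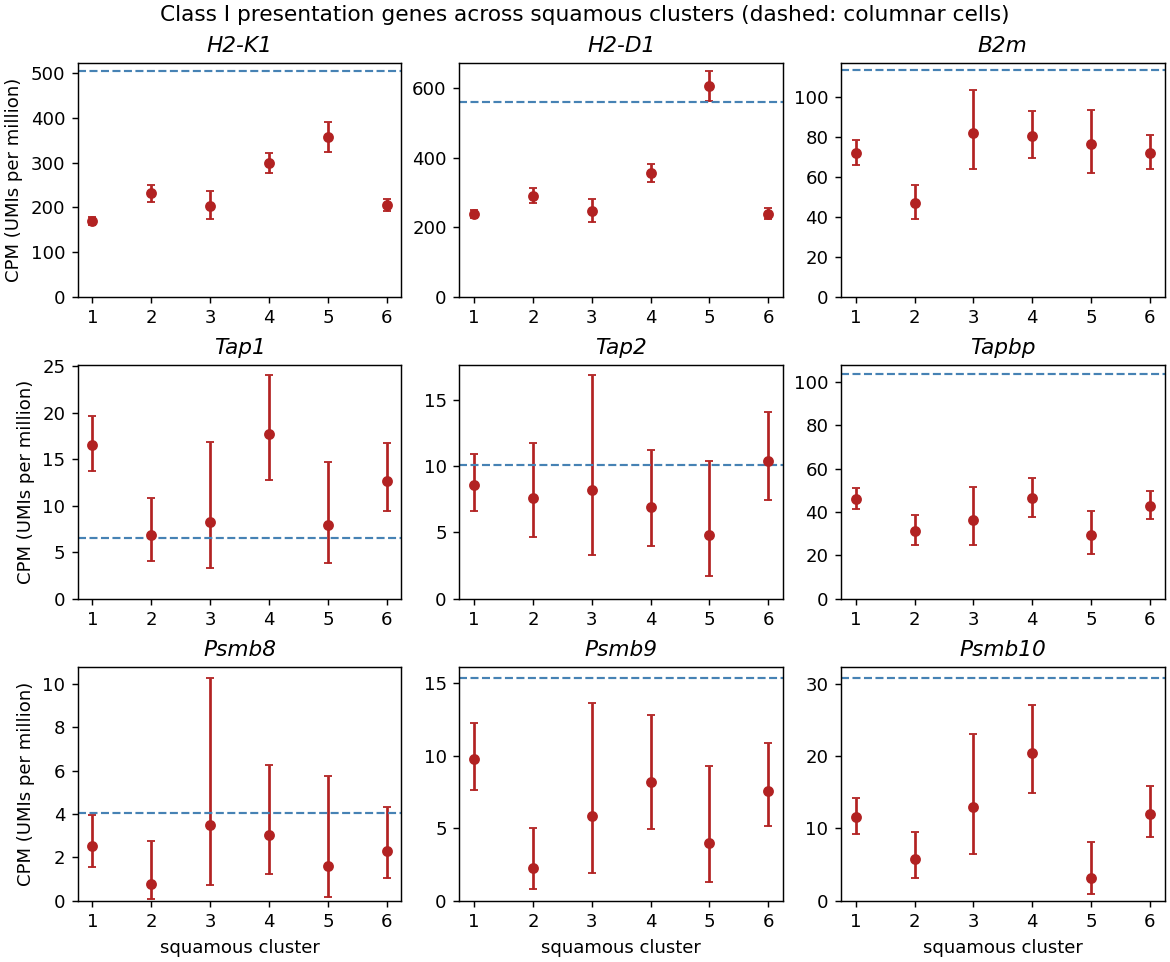
Level of the 9 measured members in CPM in each of the 6 squamous clusters, with exact 95% Poisson intervals; the dashed line is the level in columnar cells of the stomach tag. H2-K1 and H2-D1 are highest in cluster 5 (357 and 606), where Psmb10 is lowest (3.19). Tapbp varies least (highest cluster 1.57 times the lowest) and B2m next least (1.75 times).

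In cluster 5, 1 of the 9 members, H2-D1, was at least 2 times higher than in the other squamous cells, where 9.44% of all genes were, and 1, Psmb10, was at least 2 times lower, where 32.7% were. The median gene of this cluster was lower by 0.48 on the log2 scale, and Psca and Sprr2f alone gave 3.51% of its UMIs. Psmb10 had 4 UMIs there (3.19 CPM against 12.0 elsewhere, ratio 0.266, 0.0718 to 0.692), and the summed transporter and inducible proteasome genes had 27 UMIs and a ratio of 0.483 (0.316 to 0.708). Of the 5 genes in that sum only Psmb10 had an interval below 1, since those of Tap1 (10 UMIs, ratio 0.573, 0.272 to 1.07), Tap2 (6 UMIs, 0.556, 0.201 to 1.24), Psmb9 (5 UMIs, 0.515, 0.165 to 1.23) and Psmb8 (2 UMIs, 0.685, 0.0802 to 2.64) took in equality. The share of members called was near that of all genes on the higher side and below it on the lower side. Tapbp stood at 29.5 CPM (ratio 0.693, 0.484 to 0.964) and B2m at 76.5 CPM (1.10, 0.881 to 1.35). The heavy chain difference did not rest on shallow cells: in the 43 cells of the cluster with at least 5000 UMIs, H2-D1 stood at 639 CPM (2.43 times the other cells of that depth, 2.24 to 2.64) and H2-K1 at 373 CPM (1.81 times, 1.63 to 2.01). Without the cell that held most UMIs of the gene, the levels were 563 and 318 CPM. The H2-D1 level of cluster 5 was close to that of columnar cells, 606 against 562 CPM, and its H2-K1 level was below it, 357 against 505 CPM.

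Cluster 2, the other cluster rich in differentiation transcripts, had heavy chains near the level of the rest (H2-K1 231 CPM, ratio 1.08, and H2-D1 291 CPM, ratio 1.02) but the lowest levels of several other members. At least 2 times lower than in the other squamous cells were 4 of the 9, Tap1 (6.87 CPM, ratio 0.471, 0.274 to 0.761), Psmb8 (2 UMIs), Psmb9 (6 UMIs, 2.29 CPM, ratio 0.275, 0.0990 to 0.614) and Psmb10 (5.72 CPM, ratio 0.465, 0.255 to 0.786), where 13.7% of all genes were. B2m was lowest here as well, at 46.9 CPM (ratio 0.634, 0.522 to 0.763). No member was at least 2 times higher in this cluster, where 4.27% of all genes were. Cluster 2 was deeper than cluster 5 (median 35204 UMIs), and its median gene was lower by 0.15 on the log2 scale.

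Cluster 4 had H2-K1 at 298 CPM (1.46 times the rest, 1.34 to 1.58) and H2-D1 at 356 CPM (1.29 times, 1.19 to 1.39). Psmb10 reached 20.3 CPM, 2.02 times the rest (1.42 to 2.80), and was the 1 member of 9 at least 2 times higher there, where 6.47% of all genes were. None was at least 2 times lower, where 7.35% were. The summed transporter and inducible proteasome genes stood at 56.3 CPM (ratio 1.37, 1.13 to 1.66). Within that sum the intervals of Tap1 (ratio 1.38, 0.960 to 1.93, 24.4% of its UMIs in 1 cell), Psmb8 (1.40, 0.524 to 3.19) and Psmb9 (1.12, 0.649 to 1.82) took in equality. So did that of Tap2, whose ratio was below 1 (0.810, 0.450 to 1.36). In the cycling cluster 1 H2-K1 was lowest, at 169 CPM (ratio 0.683, 0.638 to 0.730), and H2-D1, at 238 CPM (0.747, 0.705 to 0.791), was level with clusters 3 and 6, while Tap1 (16.5 CPM, ratio 1.44, 1.11 to 1.86) and Psmb9 (9.78 CPM, ratio 1.65, 1.17 to 2.35) were above the rest. No member differed by 2 times or more in clusters 1, 3 and 6, where 8.02%, 3.8% and 2.23% of all genes were at least 2 times higher and 7.32%, 13.4% and 9.8% at least 2 times lower. The unnamed cluster 3 had H2-K1 at 204 and H2-D1 at 247 CPM, and cluster 6 had 205 and 240 CPM.

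Seen per cell in cells of at least 5000 UMIs, the summed heavy chains had their highest squamous median in cluster 5, 856 CPM (43 cells, 106 to 3233), then in cluster 4, 633 CPM (53 cells, 256 to 1592), cluster 2, 518 CPM (66 cells, 188 to 1255), cluster 6, 413 CPM (126 cells), cluster 1, 386 CPM (160 cells, 74.4 to 932) and cluster 3, 319 CPM (43 cells). In columnar cells the median was 1047 CPM (45 cells, 396 to 1987). The spread within every cluster was wider than the steps between neighbouring medians, and all clusters overlapped. No UMI of Tap1, Tap2, Psmb8, Psmb9 or Psmb10 was found in 33 of the 43 cells of cluster 5 (76.7%), in 33 of 66 of cluster 2, in 23 of 160 of the deeper cluster 1 (14.4%) and in 8 of 45 columnar cells (17.8%). Depth differed between these groups. After thinning to 5000 UMIs, a UMI of these 5 genes was held by 3 of 43 cells of cluster 5 (6.98%, 1.46 to 19.1), 6 of 66 of cluster 2 (9.09%, 3.41 to 18.7), 35 of 160 of cluster 1 (21.9%, 15.7 to 29.1) and 12 of 53 of cluster 4 (22.6%, 12.3 to 36.2).

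**Figure D5:**
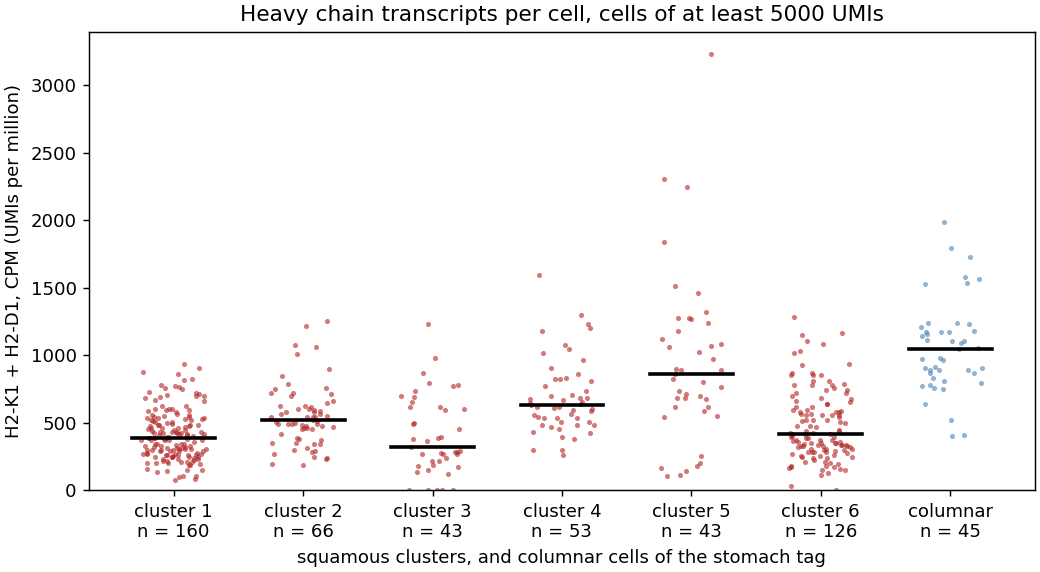
Summed H2-K1 and H2-D1 level of each cell in CPM, for cells of at least 5000 UMIs in the 6 squamous clusters and for columnar cells of the stomach tag; each point is a cell and the black bar is the median. Cluster 5 (median 856) comes nearest to the columnar cells (median 1047), and the clusters overlap.

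The ratio of heavy chain to B2m UMIs varied with these states. In cluster 5 the heavy chains were high beside a B2m level near that of the rest, and in cluster 2 B2m was low beside heavy chains near the rest. It was 12.6 in cluster 5 (10.2 to 15.7) and 11.1 in cluster 2 (9.25 to 13.5), the clusters rich in differentiation transcripts, against 8.12 in cluster 4 (6.97 to 9.51), 6.18 in cluster 6 (5.45 to 7.03), 5.67 in cluster 1 (5.17 to 6.22) and 5.50 in cluster 3 (4.25 to 7.20). H2-D1 gave 62.9% of the heavy chain pair in cluster 5 (60.2 to 65.7), the highest share of the 6 clusters, and 53.9% to 58.5% in the others. The Psmb10 share of Psmb10 and Psmb7 was 12.3% in cluster 4 (9.16 to 16.0), 2.50% in cluster 5 (0.685 to 6.28) and 3.96% in cluster 2 (2.23 to 6.44).

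Other heavy chains of the class I family, non-classical and class I-like, were also mostly on the columnar side, 6 of 10 measured genes by at least 2 times (18.7% of all genes were) and none on the squamous side. Several of these calls rest on few UMIs: H2-Q7, H2-Q10, Mr1 and Azgp1 had only 5 to 9 in columnar cells. The interval of Mr1, 0.860 to 9.50, took in equality. H2-T23, which encodes Qa-1, the ligand of natural killer receptors, stood at 47.1 CPM in squamous and 145 CPM in columnar cells (3.07 times, 2.71 to 3.48), and H2-Q2 at 0.650 and 11.7 CPM. H2-T22, a ligand of γδ T cells, did not follow, at 25.8 and 30.4 CPM (ratio 1.18, with an interval that takes in equality). Across squamous clusters H2-T23 did not share the pattern of H2-D1 in full: it was at 59.8 CPM in cluster 5, 59.9 in cluster 2 and 31.6 in cluster 4, where the classical heavy chains were high. Reads of this family are open to the same loss among copies.

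Of 10 peptide loading and trimming genes 9 were within 2 times between the groups. In columnar cells 1 was at least 2 times higher, where 18.7% of all genes were, and in squamous cells 0, where 14.8% were. The chaperone gene Calr, whose product holds the heavy chain in the loading complex, stood at 384 and 617 CPM (1.61 times higher in columnar cells, 1.52 to 1.70), Canx at 154 and 222 CPM and the disulfide isomerase gene Pdia3 at 275 and 392 CPM. Erap1, which trims peptides in the endoplasmic reticulum, was higher in squamous cells (10.9 and 6.08 CPM, 1.79 times, 1.06 to 3.26). In cluster 5 Calr was at 661 CPM against 363 in the other squamous cells (ratio 1.82, 1.69 to 1.96), and Erap1, with 5 UMIs, at 3.98 against 11.4 CPM (0.350, 0.112 to 0.830). Lnpep was the 1 gene of the list at least 2 times higher in columnar cells (25.5 and 54.7 CPM). Of the proteasome activator genes, interferon-γ raises Psme1 and Psme2 together with the inducible subunits. Psme1 was 2.11 times higher in columnar cells (77.9 and 164 CPM, 1.89 to 2.36), and Psme2 (110 and 151 CPM) and Psme3 (25.1 and 38.1 CPM) were within 2 times.

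Of 17 transcription factor genes of class I promoters 15 were within 2 times. In columnar cells 1 was at least 2 times higher, where 18.7% of all genes were, and in squamous cells 1, where 14.8% were. Nfyb, a subunit of the factor that binds the Y box printed above, was 2.27 times higher in squamous cells (59.8 and 26.3 CPM, 1.77 to 2.96), and Irf8 had 4 and 8 UMIs. Irf1, the interferon-induced factor that binds the interferon regulatory factor core, stood at 12.7 and 23.9 CPM (1.88 times higher in columnar cells, 1.39 to 2.51). Within squamous cells Irf1 was highest in cluster 4 (21.2 CPM, 1.84 times the rest, 1.31 to 2.53) and below the rest in clusters 2 (7.25 CPM), 5 (6.37 CPM, 8 UMIs) and 3 (4.68 CPM, 4 UMIs), and its intervals in clusters 1 and 6 took in equality. The summed interferon-induced genes of the list described below ran otherwise. They were lowest in cluster 4 (162 CPM) and highest in cluster 5 (399 CPM), with 169, 244, 297 and 206 CPM in clusters 1, 2, 3 and 6. Ifi27 alone gave 1664 of the 3845 squamous UMIs of that sum. A link of either pattern to the members was not tested.

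Of 15 interferon receptor and signaling genes 4 were at least 2 times higher in columnar cells (18.7% of all genes were) and none in squamous cells. Both chains of the interferon-γ receptor were among them, Ifngr1 at 20.3 and 70.9 CPM (3.49 times, 2.90 to 4.19) and Ifngr2 at 19.5 and 77.0 CPM (3.95 times, 3.29 to 4.72), and so were both chains of the interferon-λ receptor, Il10rb at 8.40 and 30.0 CPM and Ifnlr1 with 20 and 16 UMIs. The type I receptor genes Ifnar1 (10.4 and 10.9 CPM) and Ifnar2 (27.7 and 30.8 CPM) were level. Interferon ligands were all but absent, with 1 UMI in all squamous cells and 0 in columnar cells over 9 genes.

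Of 25 measured interferon-induced genes 11 were at least 2 times higher in columnar cells (18.7% of all genes were) and none in squamous cells, with a median log2 difference of -0.94, close to that of the class I members. Among those of at least 10 CPM in a group, Samd9l (1.52 and 64.0 CPM), Lgals3bp (1.14 and 47.0 CPM), Parp14 (2.38 and 18.2 CPM), Dtx3l (4.12 and 19.8 CPM) and Parp9 (6.34 and 25.1 CPM) differed most. The list did not move as one: Isg15 was at 12.8 and 10.5 CPM and Ifi27 at 90.2 and 53.9 CPM. The UMIs of a pair of these genes lay mostly in single cells: 88.0% of the 25 Ifit3 UMIs and 53.8% of the 26 Ifit1 UMIs of squamous cells came from 1 cell each, and columnar cells held 0 UMIs of either. Others were spread more widely, such as Usp18 with 26 UMIs in 20 squamous cells and Irf7 in 61 squamous and 19 columnar cells. Ifit1, Ifit3, Usp18 and Cxcl10 had 18 to 26 squamous UMIs and 0 columnar ones. With columnar cells set at 3 counts over the group (1.22 CPM), genes this scarce could not reach 2 times on the squamous side. The absence of squamous calls and the median above are thus partly set by the smaller columnar UMI total. In turn Gbp2 was called columnar on 7 squamous and 4 columnar UMIs, with an interval from 0.917 to 16.8.

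Of the class II genes, Cd74, H2-Aa and the class II transactivator gene Ciita had 0 UMIs in both groups, which allows up to 3 counts over each. Among the ligands that T and natural killer cells read, Icam1 was 12.8 times higher in squamous cells (36.4 and 2.84 CPM, 6.20 to 32.1), and Nectin2 (29.9 and 112 CPM) and the complement inhibitor gene Cd55 (2.87 and 32.0 CPM) were higher in columnar cells.

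Across single cells the correlations between members were low outside the heavy chain pair. Every correlation here is the median over 25 random thinnings of the cells to 1 depth, since single thinnings gave unlike values. Over 491 squamous cells at 5000 UMIs the correlation of H2-K1 with H2-D1 was 0.14 (0.08 to 0.22 over the thinnings), and over 375 cells at 20000 UMIs it was 0.42 (0.35 to 0.48). The 35 other pairs of members that could be computed at 20000 UMIs lay between -0.04 and 0.16. The measured members other than the heavy chains stood at only 2.28 to 70.2 CPM in squamous cells. Counts this sparse keep correlations low, so the values of these pairs cannot show whether the members vary together. All of these correlations are descriptions over cells of 1 library, and the heavy chains may share reads. The 8 genes that followed the summed members most closely at 5000 UMIs were Ecm1, Ppbp, Mal, S100a11, Sprr2a3, Cnfn, Psca and Arg1, with correlations of 0.18 to 0.21 where the median over 6897 genes was 0.0023. Their order was loose, since Ecm1 was among the highest 8 in 19 of the 25 thinnings and Psca in 2, and correlations this weak in sparse counts are no finding. At 20000 UMIs the values were higher and the order steadier, with S100a11 at 0.41 (among the highest 8 in 25 of 25 thinnings), S100a16 at 0.37 (24) and Ecm1 at 0.36 (21).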

How the data were processed

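Mouse esophageal and stomach organoid cells were labeled with sample tags, pooled and sequenced by 3′ droplet chemistry. The authors deposited raw UMI counts per gene and cell barcode, tag counts per barcode and the tag given to each barcode, without normalization. The submitters' processing notes name Cell Ranger 3.1.0 and genome build mm10. Groups came from the labels, and doublets were left to the authors' demultiplexing and to the keratin call. With doublets called by Scrublet removed as an alternative, 694 squamous and 31 columnar cells remained. H2-K1 was then at -1.26 (log2 of squamous over columnar), and 5 members were at least 2 times higher in columnar cells. Kept cells had a gene number over 100 and under 8500, no more than 80000 UMIs and a mitochondrial share up to 20%. The study's methods state these limits for tissue cells and none for organoid cells. Squamous cells had at least 0.75 of their UMIs of 6 keratins (at least 5) in Krt5, Krt14, Krt6a and Krt13, and columnar cells at most 0.25, the rest being Krt8 and Krt18. UMIs were summed over cells and divided by the total (CPM); the 3′ ends counted need no division by length. Intervals were Garwood, conditional binomial and Clopper-Pearson at 95%, checked on simulated counts. A count of 0 entered folds as 3 counts over the group, or as no difference where those 3 counts were above the other group's level. Shares of cells and correlations at 1 depth are medians, and folds means, over 25 random thinnings. This and the rule on 3 counts were set after first results were seen. Tag counts were not used here, and 1 gene is not reported here. Squamous cells were clustered with scanpy 1.11.5 (Leiden, resolution 0.6, 2000 variable genes, 20 components), TMM used edgeR 4.0.16, Python was 3.11.15 and R 4.3.3. Gene positions are those of GENCODE M21 on GRCm38. Named beside the members were up to 5 genes per pathway list with the largest difference among those of at least 10 CPM, and 8 genes by correlation. Exceptions were chosen after their values were seen (Usp18, Irf7, S100a16, Ifit1, Ifit3, Isg15, Ifi27, Irf8, Ifnlr1, Ifnar1, Ifnar2, Pdia3, Cxcl10, Gbp2, H2-Q7, H2-Q10, Mr1, Azgp1 and genes at 0). Members and lists were chosen with earlier results of these data known. Alternatives were other scalings, cell limits, keratin calls, depths, doublet removal and clusterings.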

Additional observations from a re-analysis of the deposited data

How the results depend on the processing

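The 9 measured members were recomputed under 14 alternatives, 2 of them added after seeing the data (columnar cells of the esophageal tag, and squamous cells without the 2 shallow clusters). H2-K1 (-1.29 to -0.96, log2 of squamous over columnar), H2-D1 (-1.09 to -0.72), B2m, Tapbp (-1.41 to -1.04), Psmb8 and Psmb10 (-1.63 to -1.22) kept the columnar side and Tap1 (0.16 to 1.36) the squamous side in all that gave a value (13 for Psmb8). Tap2 changed sides in 4, and Psmb9 turned to 0.048 with the columnar cells of the esophageal tag. The count of 4 members at least 2 times higher in columnar cells became 2 without the upper limits on UMIs and genes and 2 without any limit, and lay between 3 and 5 otherwise. The count of 1 in squamous cells (Tap1) became 0 in both of these, and also 0 with a mitochondrial limit of 10%, a stricter keratin call, no keratin call, and the columnar cells of the esophageal tag. TMM added 0.19 and median-of-ratios scaling 0.18 to every log2 difference of squamous over columnar, which left 3 members, without Psmb9, at least 2 times higher in columnar cells. With TMM 15.7% of all measured genes were at least 2 times higher in columnar and 18.1% in squamous cells. With median-of-ratios scaling these shares were 15.9% and 17.9%. The shares over all genes were not computed for the other sets of cells. In the cluster richest in differentiation transcripts the heavy chains over the rest (log2 1.04) were 0.86 at resolution 0.3, 0.82 at resolution 1.0 and 1.32 in k-means clusters (20 cells). The summed transporter and inducible proteasome genes (log2 -1.05) were -0.83 at resolution 0.3, -0.69 at resolution 1.0 and -2.11 in k-means clusters. The cause of these shifts was not tested. No paired analysis was possible because each group holds 1 sample and no result comes from a test. Psmb8, Nlrc5 and Tap2 are limited by depth, as are all ratios on the 16 columnar Tap1 UMIs.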

Other observations

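H2-Ab1, which encodes a class II β chain and lies near the class I transporter genes on chromosome 17, had 641 UMIs in 220 squamous cells (34.7 CPM) and 3 UMIs in columnar cells (1.22 CPM), 28.6 times higher in squamous cells (9.74 to 139). Its partner H2-Aa, the invariant chain gene Cd74 and Ciita were at 0 in the same cells, and H2-Eb1 had 10 UMIs. H2-Ab1 was present in all 6 squamous clusters, from 22.3 CPM in cluster 5 to 59.3 CPM in cluster 4, and no cell held more than 2.18% of its UMIs. Where on the gene its reads lie was not examined. H2-DMa had 61 UMIs in squamous and 6 in columnar cells. Of the natural killer cell ligand genes that squamous cells express, Raet1e had 109 UMIs in squamous and 0 in columnar cells (at least 4.86 times higher in squamous cells with the columnar cells set at 3 counts over the group, and 3.89 times at the lower end of the 95% counting interval), and Ulbp1 had 83 and 1 UMIs.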
